A study of Homo sapiens with 30 samples.

Results

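Aminoacyl-tRNA synthetases were followed here as 32 genes of the 58278 counted: 16 genes of the cytosolic machinery and 16 nuclear genes for mitochondrial synthetases. They were taken by symbol from the Ensembl identifiers of the count files, whatever their level, and all 32 passed the filter on low counts that left 22321 genes for testing. The cytosolic 16 are 13 synthetase genes (AARS1, EPRS1, FARSA, FARSB, GARS1, IARS1, KARS1, LARS1, MARS1, NARS1, TARS1, VARS1 and YARS1) and 3 scaffold genes of the multi-synthetase complex (AIMP1, AIMP2 and EEF1E1). The mitochondrial 16 have symbols ending in 2 (AARS2, CARS2, EARS2, FARS2, HARS2, IARS2, LARS2, MARS2, NARS2, PARS2, RARS2, SARS2, TARS2, VARS2, WARS2 and YARS2). The study transfected HEK293 cells, a human embryonic kidney line with no engineered genotype here, with EGFP(mutant)-mCherry mistranslation reporters, sorted the mCherry+ cells at 48 h and sequenced their polyA RNA. Of 10 groups of 3 libraries, 5 received a reporter with its missense-correcting tRNA (mc-tRNA) on a single plasmid: Ser-tRNA_Arg(CCG) with EGFP(R65), Arg-tRNA_Gln(CUG) with EGFP(R96Q), Arg-tRNA_Cys(GCA) with EGFP(R96C), Arg-tRNA_His(GUG) with EGFP(R96H) and Arg-tRNA_Trp(CCA) with EGFP(R96W). The name of an mc-tRNA gives the amino acid it is meant to insert, the amino acid whose codon it reads and, in brackets, its anticodon. The other 5 groups received the same reporters alone. Every group is thus a transiently transfected, overexpressing population of 1 cell line selected for the reporter, and no untransfected group was analysed here.

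A synthetase joins an amino acid to its matching tRNA, so the set of synthetases fixes how codons are read. In the cytosol several of them sit together with non-catalytic scaffold proteins in the multi-synthetase complex, while others act outside it. Mitochondria use a separate, nuclear-encoded set that is imported and charges the organelle's own tRNAs for translation of respiratory chain subunits, although GARS1 and KARS1 each supply both compartments. Genes of several cytosolic synthetases are known targets of ATF4, the transcription factor of the integrated stress response.

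Gene totals were 39017548 to 55446962 counts per library, so that even SARS2, with the lowest level of the 32, was counted in every group. Levels are given as CPM, the count relative to the library's total after scaling by TMM (trimmed mean of M-values) factors. A change is the log2 ratio of an mc-tRNA group to its own reporter group, ± SE, with 3 libraries in each. A gene rose or fell where its edgeR quasi-likelihood p, adjusted over all 22321 genes, was under 0.05. The 6 EGFP(R65) libraries held 0 ERCC spike-in counts and the 24 EGFP(R96) libraries 10 to 106, and the labels name no batch, so that EGFP(R65) cannot be told apart from any difference in preparation. Scaling matters for Arg-tRNA_Cys(GCA): with library totals in place of TMM factors the median log2 change of all genes moved to -0.59, against -0.04 under TMM, and the higher share of called genes to 20.2%, against 49.8%. For Arg-tRNA_Trp(CCA) the same swap gave -0.16 against -0.03, and 31.4% against 48.8%. The higher share was 38.3% against 49.6% with Arg-tRNA_Gln(CUG) and 48.4% against 62.1% with Arg-tRNA_His(GUG). In bulk RNA, fewer cells of a kind and less RNA per cell cannot be told apart.

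With a reporter alone, the cytosolic genes lay well above the mitochondrial ones per length of exon. Averaged over the 5 reporter groups, the median level was 51.2 CPM per kb of exon in the cytosolic class and 10.7 CPM per kb in the mitochondrial class. IARS1, the isoleucyl-tRNA synthetase of the complex, was the highest cytosolic member at 99.4 CPM per kb, with AARS1 at 99.3 and GARS1 at 98.8 next to it. The means of these 3 genes differed by less than their ranges over the reporter groups, which for IARS1 ran between 74.8 and 124 CPM per kb. The complex scaffold EEF1E1 was the lowest at 11.5 CPM per kb. IARS2 led the mitochondrial class at 49.8 CPM per kb, above 7 cytosolic members, and SARS2, the mitochondrial seryl-tRNA synthetase, closed it at 1.94 CPM per kb. SARS2 shares 46.18% of its exonic length with AC011455.2 on the same strand, so its level depends on how shared reads were assigned.

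With Arg-tRNA_Cys(GCA), most cytosolic synthetase mRNAs rose and most mitochondrial ones fell. Of the 16 cytosolic genes 13 rose and 2 fell, where 60.7% of all tested genes were called, 30.2% higher and 30.5% lower. The median log2 change of the class was 0.82, beside -0.04 over all genes tested. Of the 16 mitochondrial genes 3 rose and 11 fell, with a median of -0.57. On library totals the cytosolic class had 9 higher and 5 lower calls with a median of 0.28, and the mitochondrial class 0 higher and 15 lower with a median of -1.11. Of all 22321 genes, 3143 were higher and 12401 lower on library totals, with a median of -0.59.

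**Figure D1:**
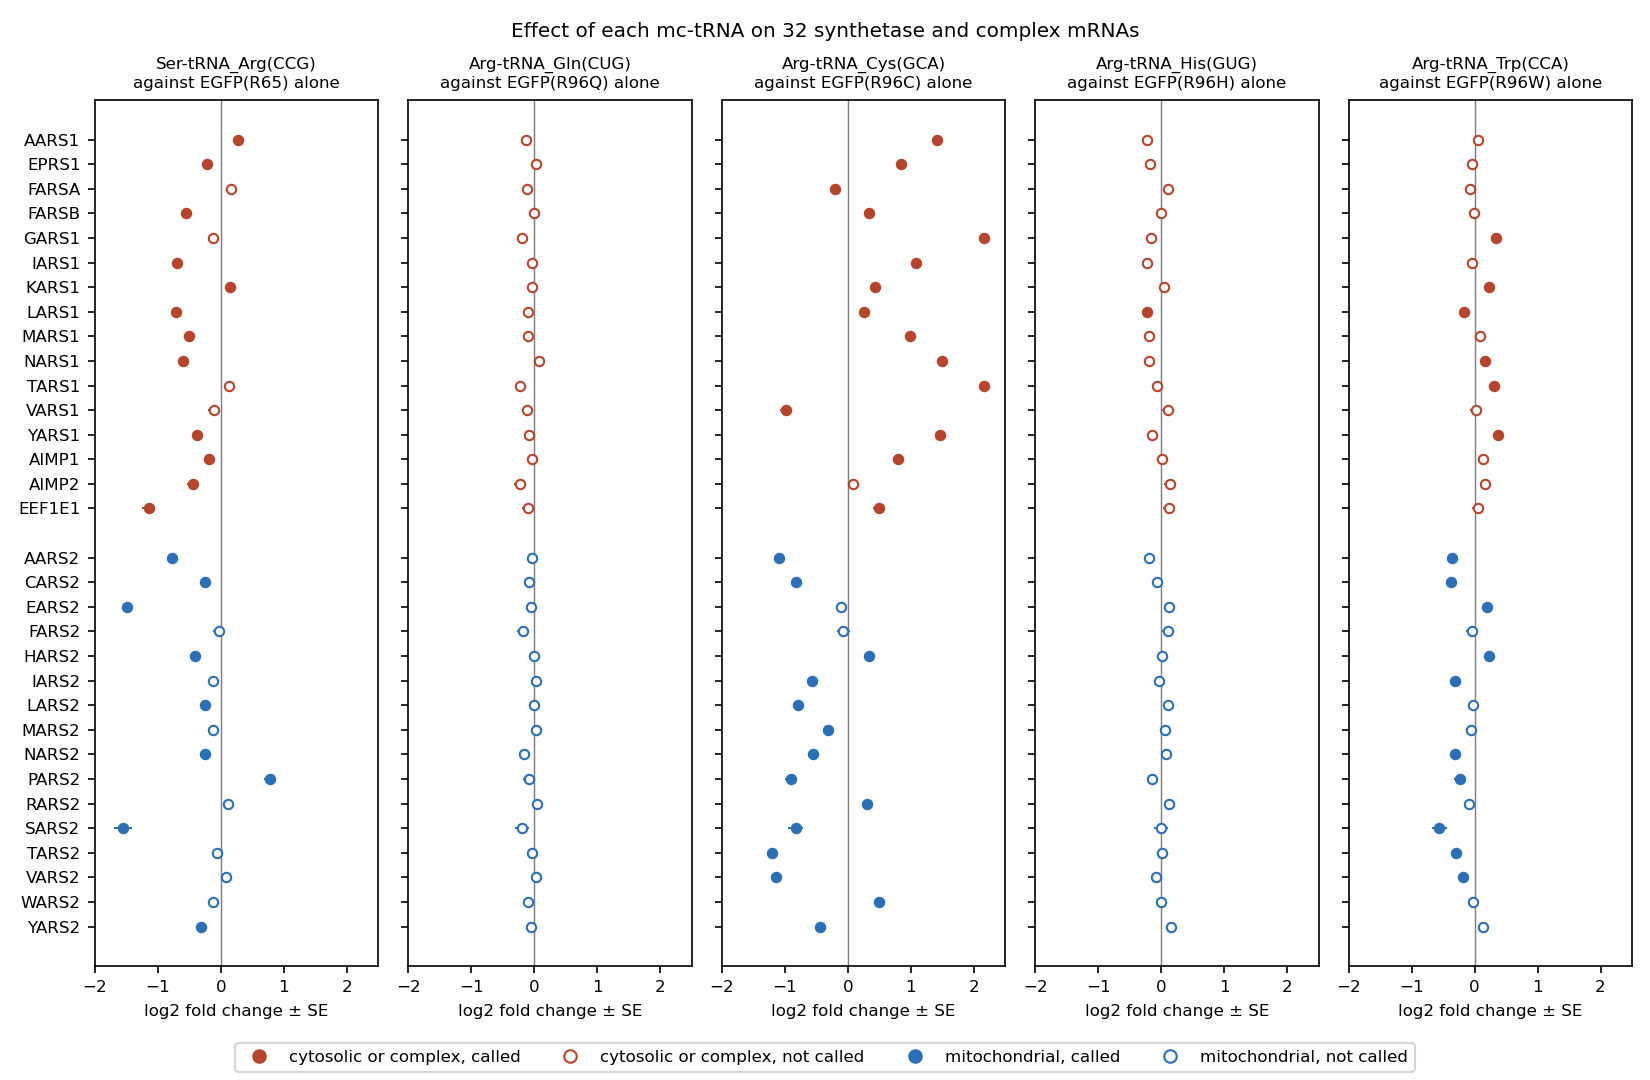
Log2 fold change ± SE (x axis) of each of the 32 genes (y axis) with each mc-tRNA against its reporter alone, 3 libraries each; filled points passed the adjusted p of 0.05. With Arg-tRNA_Cys(GCA) the cytosolic points reach 2.17 and the mitochondrial points -1.20, while with Arg-tRNA_Gln(CUG) all 32 lie between -0.23 and 0.07.

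TARS1, the cytosolic threonyl-tRNA synthetase (ENSG00000113407, chromosome 5, 33440696 to 33469539), had the largest rise. It was at 1600.0, 1679 and 1568 CPM with Arg-tRNA_Cys(GCA), against 358, 374 and 349 CPM with EGFP(R96C) alone. All 3 libraries with the mc-tRNA were thus far above the highest reporter library, as the groups did not overlap in 61.8% of all tested genes, and the fold change was 4.48 (log2 2.17 ± 0.07, adjusted p = 2.08e-25). GARS1, the glycyl-tRNA synthetase (ENSG00000106105, chromosome 7, 30594681 to 30634033), rose nearly as far, to 1776 ± 57.7 CPM against 398 ± 30.5 CPM (SD, n = 3 each; log2 2.16 ± 0.07, adjusted p = 3.33e-25). NARS1, which charges asparagine, rose 2.83-fold (adjusted p = 1.90e-21). YARS1, which charges tyrosine, rose by 1.46 ± 0.07 (adjusted p = 4.20e-19). The other free synthetase to rise past a log2 change of 1 was AARS1 (1.42 ± 0.08), which charges alanine.

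VARS1, the valyl-tRNA synthetase (ENSG00000204394, chromosome 6, 31777518 to 31795953), went the other way. It was at 98.8, 90.7 and 96.6 CPM with Arg-tRNA_Cys(GCA), against 194, 184 and 185 CPM with EGFP(R96C) alone. The groups did not overlap, and the level fell to 0.508 of that with the reporter alone (log2 -0.98 ± 0.09, adjusted p = 1.87e-11). The subunits of cytosolic phenylalanyl-tRNA synthetase moved in opposite directions under TMM: FARSA, the alpha subunit, fell (-0.20 ± 0.07, adjusted p = 0.0152), and FARSB, the beta subunit, rose (0.34 ± 0.07, adjusted p = 4.51e-05), but FARSB was at -0.20 on library totals. The FARSA call was lost without EGFP(R96C) replicate 1 (adjusted p = 0.0934). The ratio of FARSB to FARSA counts, which no scaling changes, was 1.13, 1.31 and 1.24 with Arg-tRNA_Cys(GCA), against 0.832, 0.889 and 0.791 with the reporter alone. The 2 sets of ratios did not overlap.

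The 5 synthetases of the complex had a median log2 change of 0.85, beside 1.44 for the 8 free ones. All 5 rose under TMM: IARS1 by 1.09 ± 0.07, MARS1 by 0.99 ± 0.07, EPRS1 by 0.85 ± 0.06, KARS1 by 0.43 ± 0.06 and LARS1 by 0.25 ± 0.06. On library totals KARS1 (-0.11) and LARS1 (-0.30) had the opposite sign. MARS1 was at 837, 823 and 829 CPM with the mc-tRNA, against 452, 420 and 379 CPM with the reporter alone. DDIT3, which overlaps 5.05% of the exonic length of MARS1 on the opposite strand, was at 347 ± 29.3 CPM against 31.1 ± 2.09 CPM, and its share in the MARS1 counts was not tested. Among the scaffolds, AIMP1 rose by 0.80 ± 0.07 and EEF1E1 by 0.49 ± 0.09 (-0.06 on library totals). AIMP2 was not called (0.09 ± 0.09, adjusted p = 0.389).

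**Figure D2:**
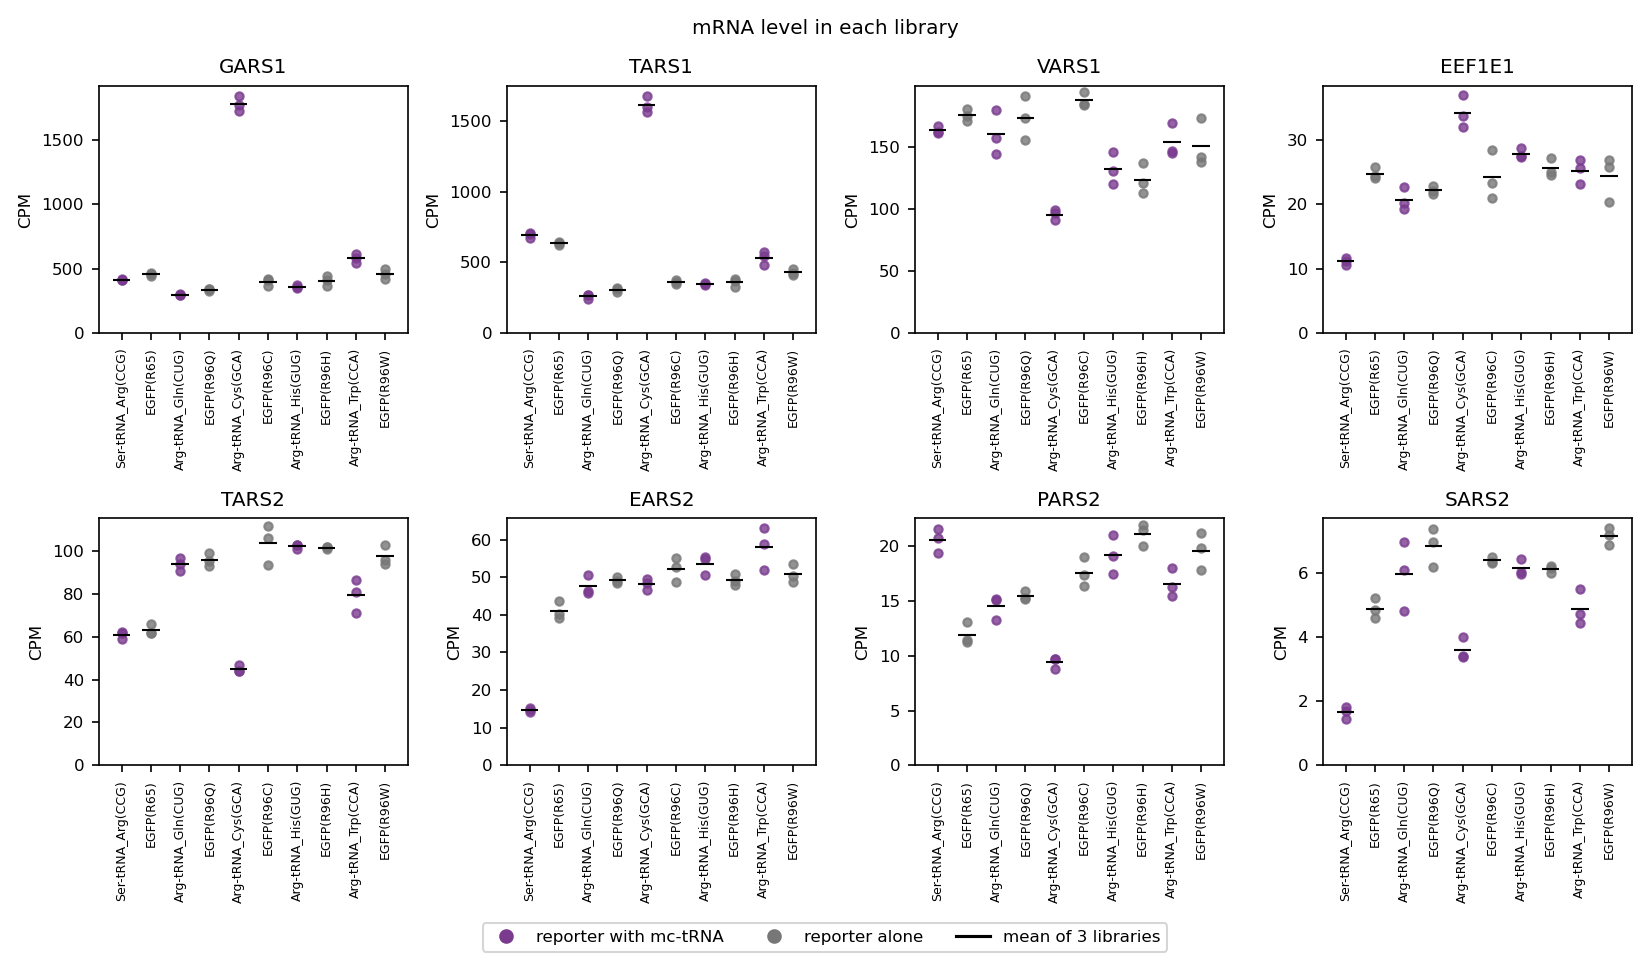
CPM (y axis, from 0) of 8 genes in each library (points) and the mean of 3 libraries (lines), for each mc-tRNA with its reporter (purple) left of that reporter alone (grey). GARS1 and TARS1 average 1776 and 1615 CPM in the Arg-tRNA_Cys(GCA) libraries, and EARS2, EEF1E1 and SARS2 are lowest with Ser-tRNA_Arg(CCG).

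TARS2, the mitochondrial threonyl-tRNA synthetase (ENSG00000143374, chromosome 1, 150487364 to 150507609), had the largest fall with Arg-tRNA_Cys(GCA). It was at 44.1, 44.0 and 46.9 CPM with the mc-tRNA, against 112, 106 and 93.5 CPM with EGFP(R96C) alone. The highest mc-tRNA library was thus below the lowest reporter library, and the log2 change was -1.20 ± 0.06 (adjusted p = 4.22e-18). VARS2, for valine, fell by 1.14 on the log2 scale (adjusted p = 3.51e-17), AARS2, for alanine, by 1.10 (adjusted p = 1.87e-16) and PARS2, for proline, by 0.90 (adjusted p = 8.93e-11). VARS2 shares 21.99% of its exonic length with GTF2H4 on the same strand. The other 7 falls ran between -0.83 for SARS2 and -0.31 for MARS2. EARS2 and FARS2 were not called, at -0.11 and -0.07.

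The 3 mitochondrial rises, WARS2 (0.49 ± 0.07), HARS2 (0.34 ± 0.07, adjusted p = 0.000108) and RARS2 (0.30 ± 0.07, adjusted p = 0.000298), held under TMM and RLE factors and changed sign on library totals, at -0.05, -0.21 and -0.25. WARS2, for tryptophan, was at 39.0, 38.7 and 42.1 CPM with the mc-tRNA, against 28.7, 29.9 and 26.6 CPM with the reporter alone. These groups did not overlap (adjusted p = 1.20e-07). HARS2 shares 11.7% of its exonic length with HARS1, the neighbouring cytosolic histidine gene, on the opposite strand.

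Pairs of genes named for a single amino acid, with both partners among the 32, numbered 10. Of these, 2 share FARS2, since FARSA and FARSB encode 2 subunits, and the bifunctional EPRS1 is set beside EARS2 and PARS2 separately. The log2 change of the cytosolic gene minus that of its mitochondrial partner is a difference that no scaling moves. It was positive in 9 of 10 pairs with Arg-tRNA_Cys(GCA), with a median of 1.48 and a range between -0.13 (FARSA and FARS2) and 3.37 (TARS1 and TARS2). In the TARS pair the ratio of cytosolic to mitochondrial counts was 36.0 ± 2.38 with Arg-tRNA_Cys(GCA), against 3.49 ± 0.266 with EGFP(R96C) alone (SD, n = 3 each). The valine pair differed from the rest, since VARS1 and VARS2 both fell and their ratio was 2.74 ± 0.246 against 2.44 ± 0.110. With Arg-tRNA_Trp(CCA) the difference was positive in 8 of 10 pairs with a median of 0.22, and with Ser-tRNA_Arg(CCG) in 3 of 10 with a median of -0.27. It was positive in 3 of 10 pairs with Arg-tRNA_Gln(CUG) (median -0.07) and in 1 of 10 with Arg-tRNA_His(GUG) (median -0.15). EPRS1, which charges glutamate and proline, was outside these counts. Its change minus that of EARS2 was 0.96 with Arg-tRNA_Cys(GCA), 1.26 with Ser-tRNA_Arg(CCG), above all 10 pairs there, and -0.24 with Arg-tRNA_Trp(CCA). Its change minus that of PARS2 was 1.74 with Arg-tRNA_Cys(GCA), -1.01 with Ser-tRNA_Arg(CCG), below all 10 pairs there, and 0.19 with Arg-tRNA_Trp(CCA).

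**Figure D3:**
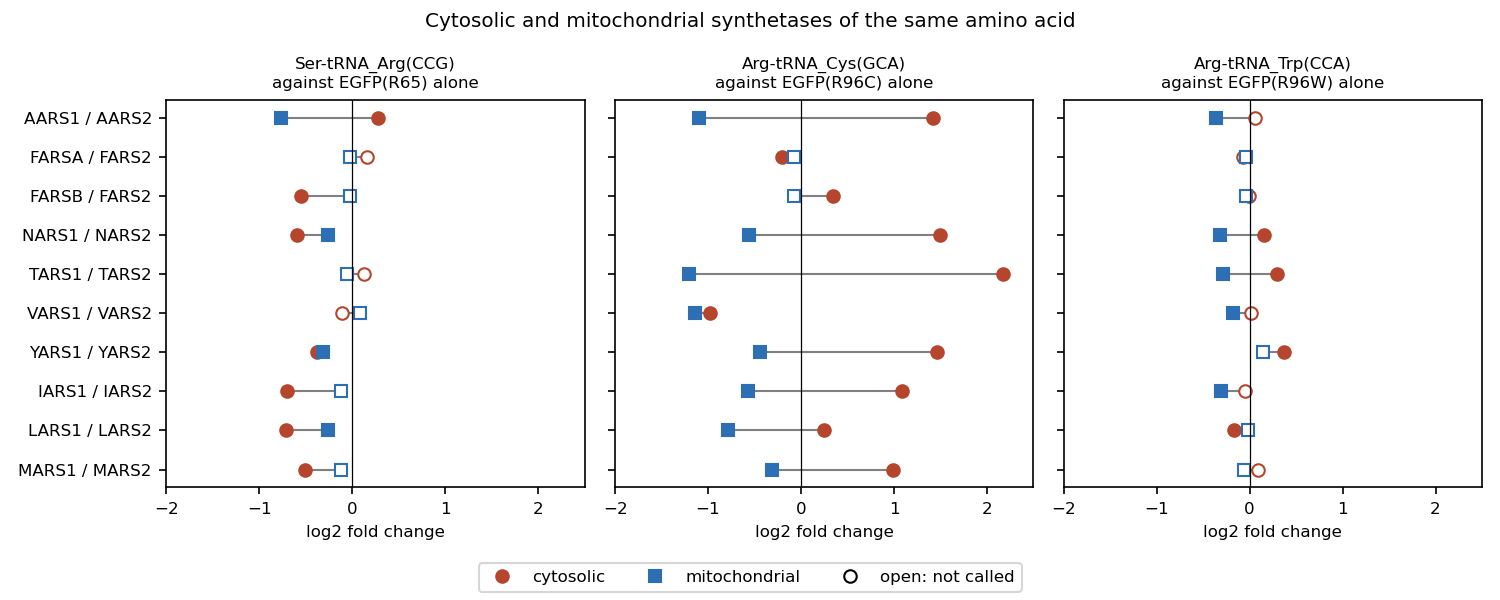
Log2 fold change (x axis) of the cytosolic gene (circle) and of its mitochondrial partner (square) for 10 pairs, joined by a line, with 3 of the mc-tRNAs; open symbols were not called. The lines are long and cross 0 in most pairs with Arg-tRNA_Cys(GCA), up to 3.37 for TARS1 and TARS2, and are short with Arg-tRNA_Trp(CCA), at most 0.60.

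Promoter windows from RefSeq (GRCh38.p14, 250 bases before to 50 after the start site) were matched by symbol for 27 of the 32 genes, all but LARS1, VARS1, YARS1, AARS2 and VARS2. The core of the C/EBP-ATF response element, the sequence that ATF4 binds with a C/EBP partner, was searched as TGATGNAA on both strands (TTNCATCA as its reverse complement). It occurred in 3.62% of all 35116 promoter windows and in 4.46% of the 27305 genes that have one. It occurred in 6 of 13 cytosolic genes and in 1 of 14 mitochondrial genes. Each match is shown on the gene's strand with its flanks, the match in capitals, because the 6 cytosolic genes are, with YARS1, those with the largest rises with Arg-tRNA_Cys(GCA):
TARS1: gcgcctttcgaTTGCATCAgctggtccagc
GARS1: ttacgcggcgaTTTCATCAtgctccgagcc
NARS1: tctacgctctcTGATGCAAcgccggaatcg
AARS1: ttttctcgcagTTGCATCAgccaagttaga
IARS1: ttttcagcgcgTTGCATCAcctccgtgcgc
MARS1: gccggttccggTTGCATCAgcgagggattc
YARS2: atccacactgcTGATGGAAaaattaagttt
The windows lie at chr5:33440956-33440985 (TARS1, plus strand), chr7:30594834-30594863 (GARS1, plus), chr18:57621804-57621833 (NARS1, minus), chr16:70289675-70289704 (AARS1, minus), chr9:92293692-92293721 (IARS1, minus), chr12:57488053-57488082 (MARS1, plus) and chr12:32756076-32756105 (YARS2, minus). Counted from the RefSeq start site as 1, with upstream bases negative, the first base of the match was at 3 in TARS1, -33 in GARS1, 15 in NARS1, -187 in AARS1, -13 in IARS1, -4 in MARS1 and -197 in YARS2. The letters TTGCATCA or their reverse complement TGATGCAA are shared by TARS1, NARS1, AARS1, IARS1 and MARS1. A match is a description of letters and not a measured binding site.

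With Arg-tRNA_Cys(GCA), the 6 cytosolic genes that hold these letters changed by 0.99 to 2.17 (median 1.46), and the 7 whose window does not hold them by -0.20 to 0.85 (median 0.43). The ranges did not overlap. YARS1, without a window here, rose by 1.46. In the list of ATF4 and its targets described below, 8 of 28 genes with a window held the letters. All 34 genes of that list rose under TMM. A split by these letters was described only within the 13 cytosolic genes, and the part of the letters in the rises was not tested. With Arg-tRNA_Trp(CCA) the ranges overlapped, at -0.05 to 0.34 (median 0.12) and -0.07 to 0.23 (median 0.05). With Ser-tRNA_Arg(CCG) they overlapped too, at -0.70 to 0.28 and -1.15 to 0.16. YARS2, the mitochondrial gene with a match, fell with Arg-tRNA_Cys(GCA) (-0.44 ± 0.06). The E-box CACGTG, in 7.26% of all promoter windows and 8.77% of the genes that have one, was found in IARS1, AIMP2, CARS2, EARS2 and MARS2. The heat shock element, in 0.49% of the windows and 0.608% of these genes, matched none of the 27.

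**Figure D4:**
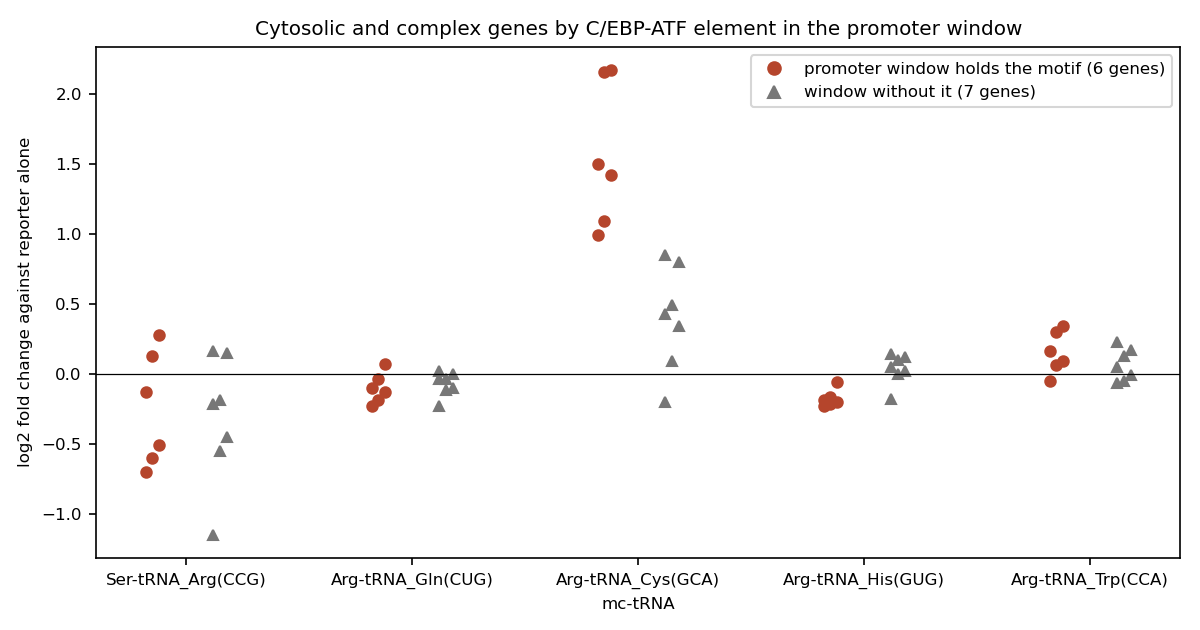
Log2 fold change (y axis) with each mc-tRNA (x axis) of the 6 cytosolic and complex genes whose RefSeq promoter window holds TGATGNAA on either strand (circles) and of the 7 whose window does not (triangles). With Arg-tRNA_Cys(GCA) the circles lie between 0.99 and 2.17 and the triangles between -0.20 and 0.85. With each other mc-tRNA the ranges overlap.

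With Ser-tRNA_Arg(CCG), both classes had more falls than rises. Of the 16 cytosolic genes 2 rose and 10 fell, where 57.3% of all tested genes were called, 26.6% higher and 30.7% lower. The class median was -0.30, beside -0.02 over all genes tested. Of the 16 mitochondrial genes 1 rose and 8 fell, with a median of -0.19. The complex was lower across its parts: all 3 scaffolds and 4 of its 5 synthetases fell, with medians of -0.45 and -0.51, against 3 of the 8 free synthetases. The scaffold AIMP1 (-0.19) was not called with RLE factors (adjusted p = 0.0524) or DESeq2 (0.0561), nor without EGFP(R65) replicate 3 (adjusted p = 0.203) or without Ser-tRNA_Arg(CCG) replicate 1 (0.0623) or 2 (0.0963).

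EEF1E1, the complex scaffold also called AIMP3 (ENSG00000124802, chromosome 6, 8073360 to 8102578), had the largest cytosolic fall with Ser-tRNA_Arg(CCG). It was at 10.5, 11.1 and 11.7 CPM with the mc-tRNA, against 24.1, 24.3 and 25.7 CPM with EGFP(R65) alone. The groups did not overlap, as in 66.3% of all tested genes, and the log2 change was -1.15 ± 0.10 (adjusted p = 2.42e-12). EEF1E1 shares 18.65% of its exonic length with the readthrough gene EEF1E1-BLOC1S5. LARS1, for leucine, fell by 0.71 on the log2 scale (adjusted p = 9.76e-13). IARS1, for isoleucine, fell by 0.70 (adjusted p = 2.52e-11), and NARS1 by 0.60 (adjusted p = 2.16e-10).

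AARS1 rose with Ser-tRNA_Arg(CCG) while most of its class fell. It was at 507, 486 and 496 CPM with the mc-tRNA, against 396, 398 and 428 CPM with EGFP(R65) alone. These groups did not overlap (log2 0.28 ± 0.08, adjusted p = 0.00148). The other rise, KARS1 for lysine at 0.15 ± 0.06 (adjusted p = 0.0355), was close to the threshold and was lost in 7 alternatives, among them the fits without EGFP(R65) replicate 1 (adjusted p = 0.152) and 2 (0.0906) and without replicate 1 (0.0953), 2 (0.0617) or 3 (0.0687) of Ser-tRNA_Arg(CCG). FARSB fell by 0.55 while FARSA stood at 0.16 and was not called. The ratio of FARSB to FARSA counts was 1.06, 1.06 and 1.14 with the mc-tRNA, against 1.69, 1.64 and 2.01 with the reporter alone, with no overlap, and thus lower where it had been higher with Arg-tRNA_Cys(GCA). Mean ratios with the EGFP(R96) reporters alone ran between 0.838 and 1.39. The mean of 1.08 with Ser-tRNA_Arg(CCG) lay within that range, and the 1.78 with EGFP(R65) alone lay above it.

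SARS2 (ENSG00000104835, chromosome 19, 38915266 to 38930896) had the largest mitochondrial fall with Ser-tRNA_Arg(CCG). It was at 1.69, 1.83 and 1.43 CPM with the mc-tRNA, against 5.22, 4.58 and 4.85 CPM with EGFP(R65) alone. All 3 mc-tRNA libraries were below the reporter libraries (log2 -1.56 ± 0.14, adjusted p = 4.28e-12). EARS2, which charges glutamate and, in mitochondria, also the glutamine tRNA, was at 15.2, 14.6 and 14.1 CPM, against 39.2, 40.1 and 43.8 CPM (log2 -1.49 ± 0.07, adjusted p = 1.48e-18). These groups did not overlap either, and EARS2 is the mitochondrial member of the comparison with the smallest adjusted p. AARS2 fell by 0.77 (adjusted p = 3.74e-12) and HARS2 by 0.41 (adjusted p = 7.39e-06) on the log2 scale.

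PARS2, the mitochondrial prolyl-tRNA synthetase (ENSG00000162396, chromosome 1, 54756898 to 54764514), rose with Ser-tRNA_Arg(CCG). It was at 21.6, 20.8 and 19.4 CPM with the mc-tRNA, against 11.3, 13.1 and 11.4 CPM with EGFP(R65) alone. The groups did not overlap (log2 0.78 ± 0.09, adjusted p = 1.46e-09). Their means were 20.6 and 11.9 CPM, and the means with the EGFP(R96) reporters alone were 15.5 to 21.2 CPM. The same gene fell with Arg-tRNA_Cys(GCA), and the difference between these effects was 1.68 ± 0.13 (adjusted p = 8.49e-14).

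With Arg-tRNA_Trp(CCA), changes were smaller. Of the 16 cytosolic genes 5 rose and 1 fell, where 42.5% of all tested genes were called, 20.7% higher and 21.7% lower; the class median was 0.07, beside -0.03 over all genes tested, and was -0.06 on library totals. Of the 16 mitochondrial genes 2 rose and 8 fell, with a median of -0.14. On library totals the cytosolic class had 3 higher and 5 lower calls and the mitochondrial class 0 and 10. Of all 22321 genes, 3197 were higher and 6976 lower on library totals, with a median of -0.16. The comparison shares no library with that of Arg-tRNA_Cys(GCA). The 5 cytosolic rises (YARS1, GARS1, TARS1, KARS1 and NARS1) were 5 of the 13 of 16 with Arg-tRNA_Cys(GCA), and the 8 mitochondrial falls (AARS2, CARS2, IARS2, NARS2, PARS2, SARS2, TARS2 and VARS2) were 8 of the 11 of 16. With so many members called there, most would be shared in any case. Over all tested genes, 64.3% of those higher and 59.3% of those lower with Arg-tRNA_Trp(CCA) had the same call with Arg-tRNA_Cys(GCA).

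YARS1 (ENSG00000134684, chromosome 1, 32775237 to 32818153) had the largest cytosolic rise with Arg-tRNA_Trp(CCA). It was at 757, 811 and 635 CPM with the mc-tRNA, against 519, 567 and 617 CPM with EGFP(R96W) alone. The third mc-tRNA library lay just above the highest reporter library, and groups did not overlap in 47.8% of all tested genes (log2 0.37 ± 0.07, adjusted p = 6.37e-05). GARS1 rose by 0.34 ± 0.06 (adjusted p = 5.28e-05), TARS1 by 0.30 ± 0.06 (adjusted p = 0.000172) and KARS1 by 0.23 ± 0.06 (adjusted p = 0.00333), the last with overlapping groups. Without Arg-tRNA_Trp(CCA) replicate 2, KARS1 was not called (adjusted p = 0.0561). NARS1, at 0.16, was not called in 3 of the fits that leave out a library, with adjusted p of 0.227 without EGFP(R96W) replicate 1, and 0.144 and 0.146 without Arg-tRNA_Trp(CCA) replicate 1 or 2.

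LARS1 was the cytosolic gene that fell. It was at 329, 344 and 312 CPM with Arg-tRNA_Trp(CCA), against 356, 381 and 376 CPM with EGFP(R96W) alone. The groups did not overlap, but the change was small (-0.17 ± 0.06, adjusted p = 0.0129) and the call was lost without EGFP(R96W) replicate 2 (adjusted p = 0.0599) or Arg-tRNA_Trp(CCA) replicate 3 (0.0649). SARS2 fell most among the mitochondrial genes. It was at 5.48, 4.71 and 4.42 CPM with the mc-tRNA, against 7.40, 7.18 and 6.88 CPM with the reporter alone, again with no overlap (-0.56 ± 0.12, adjusted p = 0.000208). CARS2, for cysteine, fell by 0.38 (adjusted p = 3.42e-05), AARS2 by 0.36 (adjusted p = 3.32e-05) and NARS2 by 0.32 (adjusted p = 4.55e-05) on the log2 scale.

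HARS2, for histidine, had the largest mitochondrial rise with Arg-tRNA_Trp(CCA). It was at 59.2, 57.3 and 51.7 CPM with the mc-tRNA, against 48.4, 49.2 and 46.1 CPM with EGFP(R96W) alone. The groups did not overlap (0.23 ± 0.07, adjusted p = 0.00992), though without Arg-tRNA_Trp(CCA) replicate 1 the adjusted p was 0.0668. EARS2 rose by 0.19 ± 0.07 (adjusted p = 0.0194) with overlapping groups, and was not called in 4 of the fits that leave out a library: without EGFP(R96W) replicate 2 (0.0571) or 3 (0.0842), or Arg-tRNA_Trp(CCA) replicate 1 (0.0576) or 2 (0.179). The falls of PARS2 (-0.24) and VARS2 (-0.18) were lost in such fits as well. PARS2 was lost without EGFP(R96W) replicate 2 (0.0645) or 3 (0.133) or Arg-tRNA_Trp(CCA) replicate 1 (0.0709) or 3 (0.111). VARS2 was lost without EGFP(R96W) replicate 3 (0.139), Arg-tRNA_Trp(CCA) replicate 2 (0.0602) or 3 (0.0872), and without the EGFP(R65) libraries (0.0530).

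With Arg-tRNA_Gln(CUG) and Arg-tRNA_His(GUG), almost no member passed. With Arg-tRNA_Gln(CUG), edgeR called 0 of 32, where it called 0.551% of all tested genes, 0.273% higher and 0.278% lower; 4 of 32 had an unadjusted p under 0.05, and DESeq2 called 1 cytosolic gene lower. The 32 log2 changes lay between -0.23 and 0.07. TARS1 came closest, at -0.23 ± 0.06 (adjusted p = 0.0944). With Arg-tRNA_His(GUG), 0 of 16 cytosolic genes rose and 1 fell, and 0 of 16 mitochondrial genes were called, where 2.51% of all tested genes were called, 1.56% higher and 0.950% lower. Of the 32, 10 had an unadjusted p under 0.05, 2 of them mitochondrial, and DESeq2 called 3 cytosolic genes lower and 0 mitochondrial genes.

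LARS1 was the gene that fell with Arg-tRNA_His(GUG). It was at 339, 362 and 371 CPM with the mc-tRNA, against 379, 418 and 449 CPM with EGFP(R96H) alone. The groups did not overlap, as in 27.0% of all tested genes (log2 -0.22 ± 0.06, adjusted p = 0.0323). The call was lost without the EGFP(R65) libraries (adjusted p = 0.0516), without EGFP(R96H) replicate 2 (0.106) or 3 (0.301), and without Arg-tRNA_His(GUG) replicate 1 (0.281) or 2 (0.0925). Without EGFP(R96H) replicate 1, 6 cytosolic genes were called lower.

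The differences between effects were tested directly. An F-test of whether the 5 mc-tRNA effects are equal called 31 of the 32 genes, all but FARS2, where it called 72.5% of all tested genes. Arg-tRNA_Cys(GCA) and Arg-tRNA_Trp(CCA) differed in 26 of 32 genes (43.7% of all tested genes), Ser-tRNA_Arg(CCG) and Arg-tRNA_Trp(CCA) in 20 (45.3%), and Ser-tRNA_Arg(CCG) and Arg-tRNA_Cys(GCA) in 28 (56.5%). For the last of these, 14 of 16 cytosolic genes were lower with Ser-tRNA_Arg(CCG) under TMM, with a class median of -1.10 relative to Arg-tRNA_Cys(GCA). Scaling moves this contrast. Of all 22321 genes, 5640 were higher and 6976 lower under TMM, with a median of -0.03. On library totals 10133 were higher and 3587 lower, with a median of 0.48. Of the 10 cytosolic falls with Ser-tRNA_Arg(CCG), 9 were among the cytosolic rises with Arg-tRNA_Cys(GCA), which hold 13 of the 16 genes, so that this count is close to the share of the class that rose. Over all tested genes, 27.7% of those lower with Ser-tRNA_Arg(CCG) were higher with Arg-tRNA_Cys(GCA). GARS1 had the largest difference between these effects, -2.29 ± 0.09 (adjusted p = 2.25e-21). Between Arg-tRNA_Gln(CUG) and Arg-tRNA_His(GUG), edgeR called 0 of 32 (0.811% of all tested genes, 0.332% higher and 0.479% lower), 6 had an unadjusted p under 0.05, and DESeq2 called 0.

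Summed over each class, every Arg-tRNA_Cys(GCA) library stood apart from its reporter. The 16 cytosolic mRNAs summed to 10506 ± 129 CPM with Arg-tRNA_Cys(GCA), against 4423 ± 264 CPM with EGFP(R96C) alone, and the 16 mitochondrial mRNAs to 658 ± 19.9 against 932 ± 39.5 CPM (SD, n = 3 each). On library totals the cytosolic sums were 7599 ± 21.1 against 4668 ± 212. The ratio of the sums was 16.3, 16.3 and 15.4 with the mc-tRNA, against 4.92, 4.66 and 4.65 with the reporter alone. With Arg-tRNA_Trp(CCA) it was 6.86 to 7.14, against 5.43 to 6.19 with EGFP(R96W) alone, and these ranges did not overlap either. The cytosolic sums there overlapped, at 5128 to 5935 against 4817 to 5451 CPM, and averaged 5337 against 5395 on library totals. The mitochondrial sums did not overlap, at 748 to 832 against 880 to 895 CPM. With Ser-tRNA_Arg(CCG) both sums were lower, at 4372 ± 10.7 against 5213 ± 90.1 CPM and 605 ± 2.98 against 699 ± 2.69 CPM, and the ratio was 7.23 ± 0.0533 against 7.46 ± 0.149. With Arg-tRNA_Gln(CUG) the ratio was 4.24 to 4.40 against 4.46 to 4.55, also without overlap, though edgeR called 0 of the 32 genes there. It was 4.55 to 4.88 against 4.75 to 5.63, with overlap, with Arg-tRNA_His(GUG). With 3 libraries a group, an exact permutation test of a single sum cannot go below 0.10, so no test of the sums is given.

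**Figure D5:**
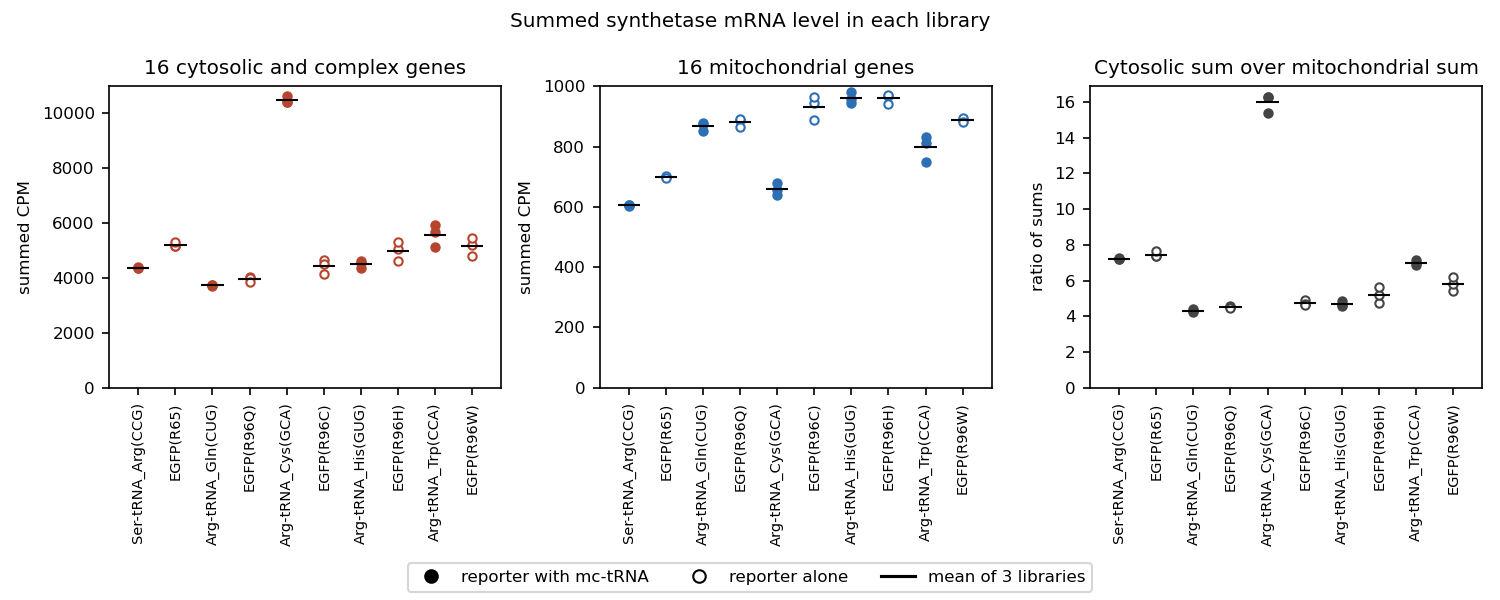
Summed CPM of the 16 cytosolic and complex genes, of the 16 mitochondrial genes, and the ratio of these sums (y axes, from 0) in each library (filled points with the mc-tRNA, open points with the reporter alone) and the mean of 3 libraries (lines). The cytosolic sum stands at 10506 CPM with Arg-tRNA_Cys(GCA), and the ratio there, 15.4 to 16.3, is above that of every other library, which lie between 4.24 and 7.63.

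The reporters alone also differed in these genes. An F-test among the 4 EGFP(R96) reporters called 26 of the 32 (54.7% of all tested genes), 15 of them cytosolic. EGFP(R65) alone differed from the mean of the EGFP(R96) reporters in 25 of 32 genes (69.0% of all tested genes), 10 higher and 15 lower, where 33.6% and 35.4% of all genes were. Of the mitochondrial genes 10 of 16 were lower with EGFP(R65). The 2 largest differences, picked after their values were seen, were IARS2 at -0.94 ± 0.04 and TARS1 at 0.82 ± 0.05. Here too EGFP(R65) cannot be told apart from a difference in preparation.

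Neighbouring steps of tRNA charging were described from lists chosen with earlier results known. Of the synthetase genes outside the 32, WARS1, which charges tryptophan in the cytosol, rose with 3 of the mc-tRNAs. Its log2 change was 1.80 ± 0.09 with Arg-tRNA_Cys(GCA) (adjusted p = 7.02e-19), 0.59 ± 0.08 with Arg-tRNA_Trp(CCA) (adjusted p = 6.21e-07) and 0.22 ± 0.08 with Ser-tRNA_Arg(CCG) (adjusted p = 0.0221). QARS1, which charges glutamine, fell with Arg-tRNA_Cys(GCA) (-0.72 ± 0.07, adjusted p = 2.83e-11) and Arg-tRNA_Trp(CCA) (-0.31 ± 0.07, adjusted p = 0.000361).

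A list of 33 known ATF4 targets and ATF4 itself, none of them among the 32 genes, was counted in the same way. All 34 rose with Arg-tRNA_Cys(GCA) under TMM, with a median of 1.86, from FGF21 at 4.52 ± 0.26 to PYCR1 at 0.25 ± 0.09; on library totals 31 rose and 2 fell, PYCR1 standing at -0.29. With Arg-tRNA_Trp(CCA) 19 rose and 3 fell (median 0.24), from PPP1R15A, a phosphatase subunit that reverses the stress response, at 1.74 ± 0.09 to PCK2 at -0.61 ± 0.17. With Ser-tRNA_Arg(CCG) 4 rose and 18 fell (median -0.43), from ATF5 at 0.99 ± 0.19 to TRIB3 at -1.33 ± 0.22. With Arg-tRNA_His(GUG) 16 fell and 0 rose (median -0.36), from XPOT, the tRNA exporter, at -0.26 ± 0.07 to FGF21 at -1.31 ± 0.32. With Arg-tRNA_Gln(CUG) GDF15 rose (0.50 ± 0.12) and CTH fell (-0.50 ± 0.10), and the other 32 were not called. Of all tested genes, 30.2% rose and 30.5% fell with Arg-tRNA_Cys(GCA), 20.7% and 21.7% with Arg-tRNA_Trp(CCA), and 26.6% and 30.7% with Ser-tRNA_Arg(CCG). These shares were 1.56% and 0.950% with Arg-tRNA_His(GUG), and 0.273% and 0.278% with Arg-tRNA_Gln(CUG). On library totals 3143 of all 22321 genes rose and 12401 fell with Arg-tRNA_Cys(GCA).

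Factors of mitochondrial translation changed in both directions, as did the tested genes as a whole. Of 18 tested, 7 rose and 7 fell with Arg-tRNA_Cys(GCA) under TMM, where 30.2% of all tested genes rose and 30.5% fell. On library totals 2 rose and 16 fell, where 3143 of all 22321 genes rose and 12401 fell. GFM2, a mitochondrial ribosome recycling factor, rose under every scaling tried (1.66 ± 0.06), and MTG1, a GTPase of mitochondrial ribosome assembly, fell (-1.18 ± 0.12). The same genes were the ends with Arg-tRNA_Trp(CCA), at 0.60 ± 0.06 and -0.60 ± 0.12. There 4 rose and 3 fell, beside 20.7% and 21.7% of all tested genes. With Ser-tRNA_Arg(CCG) 5 rose and 11 fell, beside 26.6% and 30.7% of all tested genes. GATC, a subunit of the amidotransferase that turns the glutamate placed by EARS2 on the mitochondrial glutamine tRNA into glutamine, had the largest fall there (-1.04 ± 0.06), and the rescue factor MTRFR the largest rise (0.58 ± 0.07). With Arg-tRNA_Gln(CUG) and Arg-tRNA_His(GUG) edgeR called 0 of 18, beside 0.551% and 2.51% of all tested genes, and 0 and 2 had an unadjusted p under 0.05.

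Of 11 tested partners of cytosolic charging, such as editing factors, elongation factors and enzymes of selenocysteine synthesis, 5 rose and 4 fell with Arg-tRNA_Cys(GCA). Of all 22321 genes 30.2% rose and 30.5% fell there, and on library totals 3143 rose and 12401 fell. ANKRD16, a cofactor of alanyl-tRNA synthetase that captures misactivated serine, fell most (-1.66 ± 0.11), and PSTK, a kinase of seryl-tRNA for selenocysteine, rose most under TMM (0.53 ± 0.11) but stood at -0.02 on library totals, where 0 rose and 8 fell. With Ser-tRNA_Arg(CCG) 2 rose and 6 fell, from EEF1A1, which carries charged tRNA to the ribosome, at 0.58 ± 0.07 to SEPSECS, the selenocysteine synthase, at -0.98 ± 0.10. With Arg-tRNA_Trp(CCA) 3 rose and 5 fell, from AARSD1 at 0.71 ± 0.11 to DTD2 at -0.69 ± 0.09. Of all tested genes, 26.6% rose and 30.7% fell with Ser-tRNA_Arg(CCG), and 20.7% and 21.7% with Arg-tRNA_Trp(CCA). SEPSECS was the 1 called with Arg-tRNA_His(GUG) (-0.40 ± 0.10), and with Arg-tRNA_Gln(CUG) edgeR called 0 of 11, 2 having an unadjusted p under 0.05. Of all tested genes edgeR called 2.51% and 0.551% there.

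All 6 markers of the HEK293 line were counted in every library, and their summed level lay between 681 and 960 CPM. It was 867 to 942 CPM with Arg-tRNA_Cys(GCA), against 784 to 809 CPM with EGFP(R96C) alone, 820 to 838 against 681 to 724 CPM with Ser-tRNA_Arg(CCG), and 738 to 841 against 848 to 941 CPM with Arg-tRNA_Trp(CCA). Of 8 markers of blood, stroma, vessel and keratinocytes, PTPRC, CD3E, HBB, KRT14 and KRT5 reached at most 0.0997 CPM. The summed level of these 8, which is mostly COL1A1, was 50.5 to 51.9 CPM with Arg-tRNA_Cys(GCA), against 19.4 to 21.6 CPM with EGFP(R96C) alone, and 17.4 to 27.5 CPM in the other groups. The members of these lists did not move together. KRT8 and KRT18 rose with Arg-tRNA_Cys(GCA) (1.49 and 1.43) and Arg-tRNA_Trp(CCA) (0.66 and 0.57), and VIM, NEFM and CDH2 fell with Arg-tRNA_Trp(CCA). With Ser-tRNA_Arg(CCG) NEFM fell (-1.43) and LIN28B rose (0.89). PECAM1, a vessel marker, was at 1.70 ± 0.243 CPM with Ser-tRNA_Arg(CCG), against 0.159 ± 0.0821 CPM with EGFP(R65) alone (log2 3.41 ± 0.44, adjusted p = 2.78e-08). COL3A1 fell with Ser-tRNA_Arg(CCG) (-1.56) and Arg-tRNA_Trp(CCA) (-0.98) and rose with Arg-tRNA_Cys(GCA) under TMM (0.52, but -0.02 on library totals). The part of either list in the synthetase changes was not tested.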

How the data were processed

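The mRNA of 30 HEK293 libraries was measured in 10 groups of 3, described in the labels' protocols as independent replicates. The authors deposited raw counts per gene, 1 file per library and not normalized, made with STAR, SAMtools and featureCounts on hg38, per the submitters' processing notes; the column names speak of uniquely mapped paired-end reads, per the file headers. Libraries were strand-specific, per the labels' protocols. How strand was treated in counting was not given in the sources used here, nor were the gene annotation and the tool versions, so reads of overlapping genes may be shared between them. Overlaps of exons and gene positions came from GENCODE release 29 (GRCh38), in which 28 of the 32 identifiers had the same version, FARS2, HARS2, LARS2 and VARS2 another.

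The 92 ERCC features entered no library size or test. Genes were filtered with filterByExpr, scaled with TMM and tested in edgeR 4.0.16 (R 4.3.3; robust quasi-likelihood fit, 10 group means, 30 libraries, 20 residual degrees of freedom, biological coefficient of variation 8.24%), with Benjamini-Hochberg adjustment over 22321 genes in each of 12 tests and a threshold of 0.05. The fit was tested on simulated data. Replicate pairs differed by 2.08 to 36.7 in chi-square per degree of freedom, more than counting error. A count of 0 allows up to 3 counts, 0.0541 to 0.0769 CPM, for counting error only. CPM is scaled to the library total times its TMM factor. Levels per kb divide by the merged exon length.

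The members and lists were chosen with earlier results of these data known. In each comparison and class the 4 largest called rises and the 4 largest called falls are named with their adjusted p, and the largest of each with all library values; in each other list, the largest called rise and fall, except that some results on further synthetase genes are not reported here. Members named beyond that rule were picked after their values were seen. Alternatives were RLE factors, library totals, no filter, DESeq2 1.42.0, a replicate block, fits without the EGFP(R65) libraries, fits on the groups compared alone, and each library left out in turn. Promoter windows were 300 bases from RefSeq.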

Additional observations from a re-analysis of the deposited data

Results flagged for a closer look

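Members whose effects differed between mc-tRNAs in edgeR's test of the difference, and whose own changes were called in opposite directions, were flagged. The test called 26 of 32 members between Arg-tRNA_Cys(GCA) and Arg-tRNA_Trp(CCA), where it called 43.7% of all tested genes. It called 20 between Ser-tRNA_Arg(CCG) and Arg-tRNA_Trp(CCA) (45.3%) and 28 between Ser-tRNA_Arg(CCG) and Arg-tRNA_Cys(GCA) (56.5%). The F-test over all 5 effects called 31 (72.5%). LARS1, which rose with Arg-tRNA_Cys(GCA) under TMM and fell with Arg-tRNA_Trp(CCA), differed by 0.42 on the log2 scale. On library totals LARS1 was at -0.30 with both, so that this difference rests on the scaling.

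Ser-tRNA_Arg(CCG) minus Arg-tRNA_Trp(CCA) was -0.76 for NARS1, -0.75 for YARS1, -1.68 for EARS2 and -0.64 for HARS2. It was 1.02 for PARS2, which rose with Ser-tRNA_Arg(CCG).

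Ser-tRNA_Arg(CCG) minus Arg-tRNA_Cys(GCA) was negative in 10 genes that fell with the Ser mc-tRNA and rose with the Cys mc-tRNA under TMM. It was -1.07 for EPRS1, -0.89 for FARSB, -1.78 for IARS1, -0.95 for LARS1 and -1.50 for MARS1. It was -2.10 for NARS1, -1.84 for YARS1, -0.99 for AIMP1, -1.65 for EEF1E1 and -0.75 for HARS2. PARS2 had the opposite pattern, at 1.68. On library totals the rises of FARSB, LARS1, EEF1E1 and HARS2 with the Cys mc-tRNA change sign.

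Outside the gene counts, ERCC spike-in sequences were present in all 24 EGFP(R96) libraries, at 10 to 106 counts, and at 0 in the 6 EGFP(R65) libraries.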

How the results depend on the processing

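Library totals in place of TMM factors reversed the rises of WARS2 (-0.05), HARS2 (-0.21) and RARS2 (-0.25) with Arg-tRNA_Cys(GCA). They gave 5 cytosolic falls and 0 mitochondrial rises with Arg-tRNA_Cys(GCA), 1 cytosolic rise with Ser-tRNA_Arg(CCG), 1 cytosolic fall with Arg-tRNA_Gln(CUG), 5 with Arg-tRNA_His(GUG), and 3 cytosolic rises, 5 cytosolic falls and 0 mitochondrial rises with Arg-tRNA_Trp(CCA). The cytosolic rises with Ser-tRNA_Arg(CCG), 2 as reported, were 4 with RLE factors, DESeq2 or only the groups compared, and 1 with no filter; its mitochondrial rises were 2 with only the groups compared. The cytosolic falls with Arg-tRNA_Gln(CUG), 0 as reported, were 1 with no filter or DESeq2. Those with Arg-tRNA_His(GUG), 1 as reported, were 3 with no filter or DESeq2, 0 without the EGFP(R65) libraries and 6 with only the groups compared, which also gave 1 mitochondrial fall. With Arg-tRNA_Trp(CCA), 0 cytosolic falls remained with no filter or only the groups compared, and 1 mitochondrial rise in that last fit. Of all 22321 genes, library totals called 3143 higher and 12401 lower with Arg-tRNA_Cys(GCA), and 3197 and 6976 with Arg-tRNA_Trp(CCA). These counts were 5601 and 7264 with Ser-tRNA_Arg(CCG), 51 and 82 with Arg-tRNA_Gln(CUG), and 288 and 307 with Arg-tRNA_His(GUG). The causes were not tested.

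Deviations of same-numbered replicates correlated at -0.0772 to 0.14, and the larger correlation with another number ran between -0.0639 and 0.102. Such small values do not settle whether the numbers pair the libraries, and the labels name no pairing. With a replicate block, more genes were called in every mc-tRNA comparison. The count was 1124 against 560 with Arg-tRNA_His(GUG) and 231 against 123 with Arg-tRNA_Gln(CUG). A replicate block gave 4 cytosolic rises with Ser-tRNA_Arg(CCG), 1 cytosolic fall with Arg-tRNA_Gln(CUG), and 4 cytosolic and 1 mitochondrial falls with Arg-tRNA_His(GUG).

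Leaving out each library in turn gave 1 to 2 cytosolic and 1 to 2 mitochondrial rises with Ser-tRNA_Arg(CCG), 1 to 2 cytosolic falls with Arg-tRNA_Cys(GCA), 0 to 6 with Arg-tRNA_His(GUG), and 3 to 7 cytosolic rises, 0 to 1 cytosolic falls and 0 to 3 mitochondrial rises with Arg-tRNA_Trp(CCA). Over all alternatives, 358 recomputed counts of members stayed within 1.5 times of the reported one and 47 did not. Over all called members and alternatives, a call was lost 50 times and reversed 7 times, each reversal with Arg-tRNA_Cys(GCA) on library totals. Fits without the EGFP(R65) libraries could not be made for results that need them, and for the F-test of 5 effects the groups compared are all groups.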
